A study of Mus musculus with 6 samples.

Results

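An antibody against Tcf1 gave 4976 peaks in chromatin of natural killer (NK) cells of the Tcf7-/- genotype, at places where no peak was called with the same antibody in Tcf7-intact cells. These KO-only peaks were the distinct peaks of the knockout (KO) Tcf1 list on chromosomes 1 to 19 and X that share no base with any peak of the wild-type (WT) Tcf1 list. They make up 4976 of the 5090 KO Tcf1 peaks on those chromosomes, and of the 30850 distinct peaks in the 4 peak lists analysed. Another 114 KO Tcf1 peaks share at least 1 base with a WT peak, and 734 WT peaks share none with a KO peak (WT-only). The numbers that define the set (a peak called in 1 list and not in the other) chose it: the peaks were chosen by the calls of both Tcf1 lists, so values from these lists are described here and not tested.

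NK cells belong to the innate lymphocytes, and they lyse virus-infected and tumour cells by releasing perforin and granzymes. The WT cells came from the spleens of B6 mice, Tcf7+/+, and the KO cells from B6.129 Tcf7Tm1Cle mice, Tcf7-/-. Strain background and genotype therefore cannot be told apart. Both were kept in culture with 500 ng/mL of the cytokine IL-2 for 5 days and fixed for 10 min in 1% formaldehyde. Each genotype has 1 input, 1 Tcf1 and 1 H3K4me3 library, so 6 libraries in all, and the 4 antibody libraries have a peak list. The inputs were not analysed here. With 1 library per group no difference has a replicate check. The intervals below cover counting error only, and no p-value is given. How many mice were pooled, and whether the Tcf7 allele leaves a protein fragment, is not given in the sources used here.

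Tcf7 encodes Tcf1, a DNA-binding factor of the Tcf/Lef family. Its HMG box recognises short sites of the CTTTGAT type, and with beta-catenin it acts at the end of the Wnt pathway. A chromatin immunoprecipitation also recovers some DNA that is not bound by the target protein. A library from cells without the target shows where an antibody and peak caller report such signal. H3K4me3, the other antibody target here, is a histone mark of active promoters and sits over most CpG-rich promoters.

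The sequences below are the 250 bases before the start site of 6 genes whose promoter window lies under a KO-only peak. They are the 6 highest-scoring KO-only peaks that overlap a protein-coding window of the promoter table, and they show promoters at which signal was called in Tcf7-/- cells. All are 5' to 3' on the gene's strand, from RefSeq on GRCm38.p6, with CG pairs in capitals.
Ddx4: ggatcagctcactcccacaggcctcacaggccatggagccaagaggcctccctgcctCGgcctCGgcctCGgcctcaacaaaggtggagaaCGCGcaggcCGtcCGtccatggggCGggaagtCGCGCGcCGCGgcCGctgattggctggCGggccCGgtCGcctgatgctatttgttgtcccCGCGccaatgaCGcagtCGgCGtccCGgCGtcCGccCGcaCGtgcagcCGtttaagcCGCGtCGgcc
Slc34a2: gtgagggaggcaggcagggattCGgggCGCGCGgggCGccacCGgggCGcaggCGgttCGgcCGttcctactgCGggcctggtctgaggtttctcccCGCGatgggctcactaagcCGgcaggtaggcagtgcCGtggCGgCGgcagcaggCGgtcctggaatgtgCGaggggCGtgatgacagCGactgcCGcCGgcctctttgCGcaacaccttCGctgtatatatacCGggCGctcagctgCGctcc
Adora1: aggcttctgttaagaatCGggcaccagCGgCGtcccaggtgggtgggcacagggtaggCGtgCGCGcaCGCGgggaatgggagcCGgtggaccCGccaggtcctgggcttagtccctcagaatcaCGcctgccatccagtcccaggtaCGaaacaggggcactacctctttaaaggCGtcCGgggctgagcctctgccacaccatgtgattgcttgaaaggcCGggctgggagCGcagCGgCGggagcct
Nrsn1: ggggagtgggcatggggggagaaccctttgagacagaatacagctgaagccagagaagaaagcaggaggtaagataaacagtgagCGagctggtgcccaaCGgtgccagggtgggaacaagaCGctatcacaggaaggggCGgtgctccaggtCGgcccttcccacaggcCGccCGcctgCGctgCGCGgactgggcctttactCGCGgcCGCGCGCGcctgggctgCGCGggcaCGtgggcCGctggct
Btbd35f21: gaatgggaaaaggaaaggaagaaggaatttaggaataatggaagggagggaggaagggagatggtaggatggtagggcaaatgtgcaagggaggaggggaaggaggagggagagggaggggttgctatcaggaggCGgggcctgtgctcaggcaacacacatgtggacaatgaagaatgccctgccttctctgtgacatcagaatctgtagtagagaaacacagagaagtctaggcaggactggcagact
Dnah7b: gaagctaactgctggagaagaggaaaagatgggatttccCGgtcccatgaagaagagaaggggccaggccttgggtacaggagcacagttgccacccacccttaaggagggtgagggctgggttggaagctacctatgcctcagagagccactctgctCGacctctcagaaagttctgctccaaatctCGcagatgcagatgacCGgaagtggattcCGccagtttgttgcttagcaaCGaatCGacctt
The Ddx4 sequence (chr13:112652311-112652560, minus strand) holds 31 CG pairs, and Slc34a2 (chr5:53049103-53049352, plus) holds 28. Nrsn1 (chr13:25269997-25270246, minus) holds 20 and Adora1 (chr1:134234857-134235106, minus) holds 18. Dnah7b (chr1:46066603-46066852, plus) holds 7 and Btbd35f21 (chrX:32725887-32726136, plus) holds 1. The peaks cover all 300 bases of the window (250 before the start site and 50 after) at Ddx4, Slc34a2 and Nrsn1, 194 bases at Btbd35f21, 133 at Adora1 and 65 at Dnah7b. None of these 6 KO-only peaks meets an H3K4me3 peak in either genotype.

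As background, Ddx4 is a germ-cell RNA helicase, Slc34a2 a phosphate transporter of epithelia, Adora1 an adenosine receptor, Nrsn1 a neuronal vesicle protein and Dnah7b a dynein of cilia. Btbd35f21 belongs to a multicopy family on the X chromosome.

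The Tcf/Lef strings CTTTGAA (the first), CTTTGAT (the second) and CTTTGTT (the third) share the letters CTTTG and were searched on both strands in all 300-base windows. Among the 6 sequences Ddx4 has 1 match in the bases printed, AACAAAG, which is CTTTGTT on the other strand, at 174 to 168 bases before the start site. A match was found in 16 of 96 windows under a KO-only peak (16.7%, 95% Wilson interval 10.5 to 25.4%) and in 4530 of all 32619 windows (13.9%). The interval of the first share holds the second. A match is a string of letters in the window and does not show binding.

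Most KO-only peaks were small. They held a median of 14 tags (reads counted in the peak), with a range of 10 to 1222, and 3979 of them had at most 20 tags. The score, which is 10 times the negative log10 of p as MACS computed it, had a median of 57.6 and a range of 50 to 769.9. Only 186 peaks (3.74%) reached a score of 100, and 23 reached 150. The false discovery rate (FDR) that the authors' peak caller gave was 100% for 2325 peaks (46.7%), at most 50% for 20 peaks and at most 10% for 8. The median fold over the peak caller's background was 8.85 and the median length 416 bp. These values are the authors' and are not scaled to sequencing depth, which is not given in the sources used here.

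**Figure D1:**
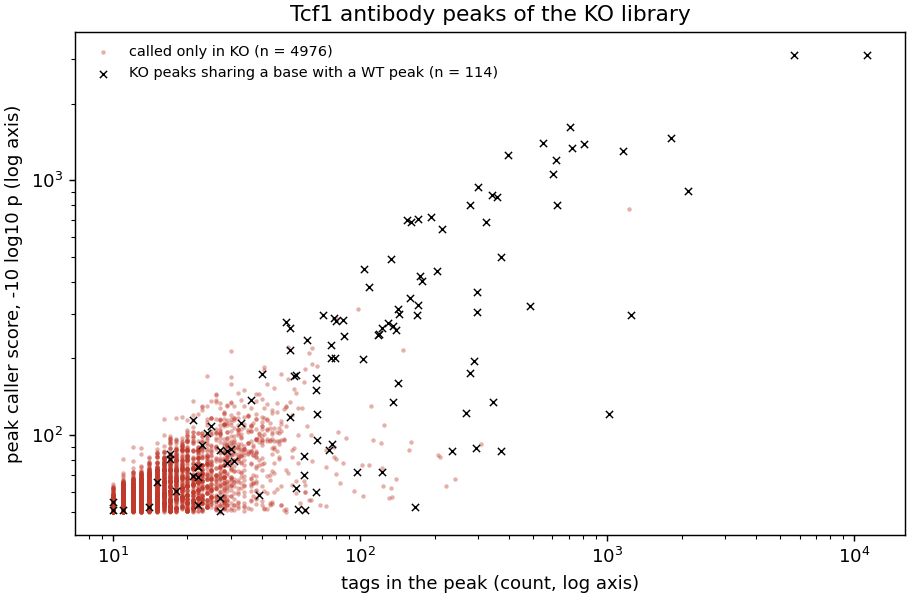
Tags (x axis, count, log scale) against score (y axis, 10 times the negative log10 of p, log scale) for the 4976 KO-only peaks (red points) and the 114 KO Tcf1 peaks that share a base with a WT peak (crosses). The KO-only peaks crowd between 10 and 20 tags near the lowest score of 50, and the shared peaks spread to 11240 tags.

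The 114 KO peaks that overlap a WT peak held a median of 103.5 tags and a median score of 199.6, and 77 of them (67.5%) reached a score of 100. The WT-only peaks held a median of 21 tags with a median score of 56.9, close to the 57.6 of the KO-only peaks. None of the 734 WT-only peaks had an FDR over 50%, and their highest FDR was 33.3%. The plot of tags against score shows the 2 KO classes overlapping at the low end, with few KO-only peaks above 100 tags (22 of 4976).

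The line between the 2 KO classes can be seen at its closest cases. The KO-only peak nearest to a WT peak lies 76 bp from it, near Cast (chr13:74705820-74706318, 17 tags, with the WT peak at 21 tags). The next lie 84 bp away near Chl1 and 127 bp away near Gm6749. On the other side, the KO peak with the smallest overlap shares 134 bp with a WT peak near Tlr4 (chr4:66637248-66638057, 27 tags against 20), and the next shares 154 bp near Sox2. Only 7 KO-only peaks lie within 1 kb of a WT peak and 34 within 10 kb, and the median gap was 1065 kb.

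The strongest KO-only peak stood far above the rest. It lies at chr13:74528368-74531090, between genes, 36.6 kb upstream of the start of Zfp825, a zinc finger gene, and held 1222 tags with a score of 769.92 and a fold of 5.72. The next by score, chr12:62547511-62549712, held 98 tags with a score of 311.8. It lies over 1 Mb (1025 kb) from the nearest start site, that of Lrfn5, a synaptic adhesion gene.

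The other 8 of the 10 highest scores ran from 187.24 to 287.35. The first of them lies in Gm8032, a predicted gene (chr14:42585886-42587801, 80 tags), and another 16.02 kb upstream of Xlr5c, a member of an X-linked multicopy family (chrX:73305924-73307168, 51 tags). A further one lies in Itga9, an integrin subunit gene (chr9:118674703-118675427, 62 tags, fold 18.64). The remaining 5 lie between genes, nearest by start site to Slc4a3, Csf2ra, Btbd35f4, Dclk1 and Mup10. Thus 8 of the 10 lie between protein-coding genes and none at a promoter. The peak near Csf2ra is the only one of the 10 under an H3K4me3 peak in both genotypes (394 tags in KO, 334 in WT).

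High tag counts and high scores were mostly different peaks. Only the peaks near Zfp825 and near Csf2ra were among the 10 highest in both. The other 8 with the most tags had 139 to 308 tags but a score of 63.32 to 94.1 and an FDR of 100%. They include the widest KO-only peak, in Gm51572 (chr8:55118540-55122833, 4294 bp, 308 tags), 2 in Sfi1, a centrosome gene (210 and 139 tags), and 1 lying 213 kb from Snrpn (157 tags). Of the other 4, 3 lie nearest to predicted genes (Gm51591, Gm17019, Gm15319) and 1 to Smgc. Reads from near-identical copies cannot be placed with certainty, how the aligner treated them is not given in the sources used here, and their part in these counts was not tested.

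By position the KO-only peaks lay slightly less often in gene bodies than the share of the sequence these cover. Their share at promoters was above that of the sequence for windows of 1 kb and not set apart from it for windows of 2.5 kb. A start site of a protein-coding gene lay within 1 kb of the summit for 112 peaks (2.25%, interval 1.87 to 2.70%), and windows of that size cover 1.62% of the chromosomes' span. Within 2.5 kb of a start site the share was 3.64% (interval 3.15 to 4.19%) against 3.91% of the span. That interval holds the share of the span, so the excess seen at 1 kb was not seen at 2.5 kb. Protein-coding gene bodies held 1788 summits (35.9%, interval 34.6 to 37.3%) and cover 40.1% of the span. The median distance to a start site was 76.3 kb, and 2182 peaks (43.9%) lay over 100 kb from one, as does 43.4% of the span.

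Stronger KO-only peaks were no closer to genes. Among the 186 that scored 100 or more, 5 (2.69%, interval 1.15 to 6.14%) lay at a promoter and 49 (26.3%, interval 20.5 to 33.1%) in a gene body, and their median distance to a start site was 128.7 kb. The 39 WT-only peaks of the same score went the other way, with 9 (23.1%, interval 12.7 to 38.3%) at a promoter. The intervals of the promoter shares do not overlap. Over all scores the WT-only share was 4.77% (35 of 734, interval 3.45 to 6.56%), also above the interval of the KO-only share.

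**Figure D2:**
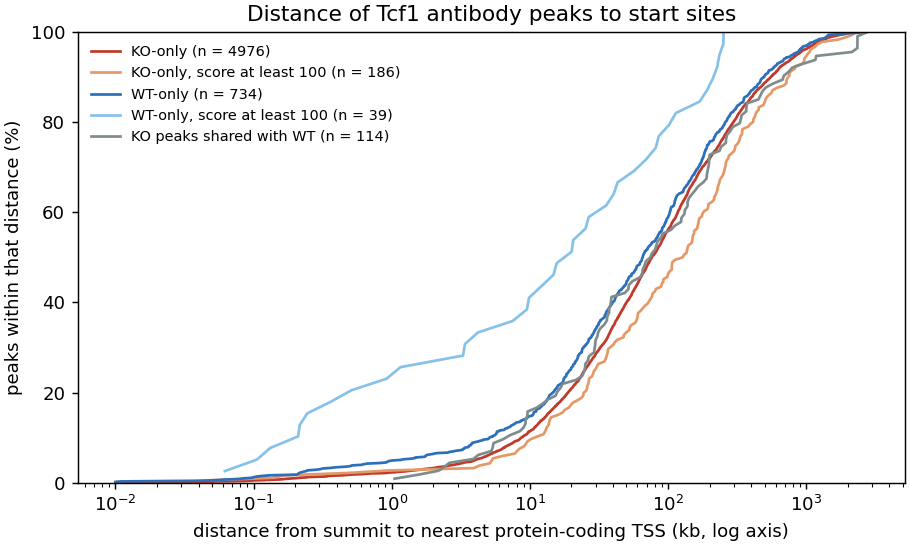
Share of peaks (y axis, %) whose summit lies within a given distance (x axis, kb, log scale) of the nearest protein-coding start site, for KO-only, WT-only and shared KO peaks. The curve of KO-only peaks that scored 100 or more (n = 186) lies right of that of all KO-only peaks, and the curve of WT-only peaks with that score (n = 39) lies left of all others.

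Of the 5 promoter peaks that scored 100 or more, the first was at Ddx4 (chr13:112651820-112652589, 41 tags, score 184.36, fold 14.78). Its summit lies 139 bp (0.139 kb) inside the gene. The second was at Fut8, which adds the core fucose of N-glycans (chr12:77410785-77411465, 30 tags, score 133.78), and it meets a WT H3K4me3 peak of 30 tags. The third was at Dusp26, a phosphatase gene (chr8:31089441-31090010, 29 tags, score 130.32). Slc34a2 (28 tags, score 108.9) and Krtap4-7, a hair keratin-associated protein gene (22 tags, score 101.45, with a KO H3K4me3 peak of 38 tags), were the last. At 3 of the 5 (Ddx4, Dusp26, Slc34a2) neither H3K4me3 list has a peak there.

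Absence of H3K4me3 was the common state of promoters under KO-only peaks. Of the 112 promoter peaks, 5 met an H3K4me3 peak in KO and 14 in WT, and 96 met none in either. Base composition was read over the promoter windows, which are a different set. The 96 windows under a KO-only peak are not the 96 peaks that met no H3K4me3 peak. They belong to genes of any type, with or without an H3K4me3 peak, and 70 of them to protein-coding genes. Of these 96 windows, 51 (53.1%) hold at least 10 CG pairs, against 43.8% of all windows. No interval was computed for the first share, so no difference is drawn from this pair. Among protein-coding windows with at least 10 CG pairs, 3 of 42 under a KO-only peak were marked (met an H3K4me3 peak) in KO (7.14%, interval 2.46 to 19.01%), against 73.2% of all 12060 such windows. In the WT list 9 of the 42 were marked (21.4%, interval 11.7 to 35.9%), against 81.1%. The windows under WT-only peaks stood near the background, with 14 of 21 marked in KO (66.7%) and 16 of 21 in WT (76.2%). Among windows with under 10 CG pairs, 1 of 28 under a KO-only peak was marked in each list (3.57%, interval 0.633 to 17.7%). That interval holds the shares of all such windows, 11.8% (KO) and 13.4% (WT), so the lower share is shown for CpG-rich windows only.

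**Figure D3:**
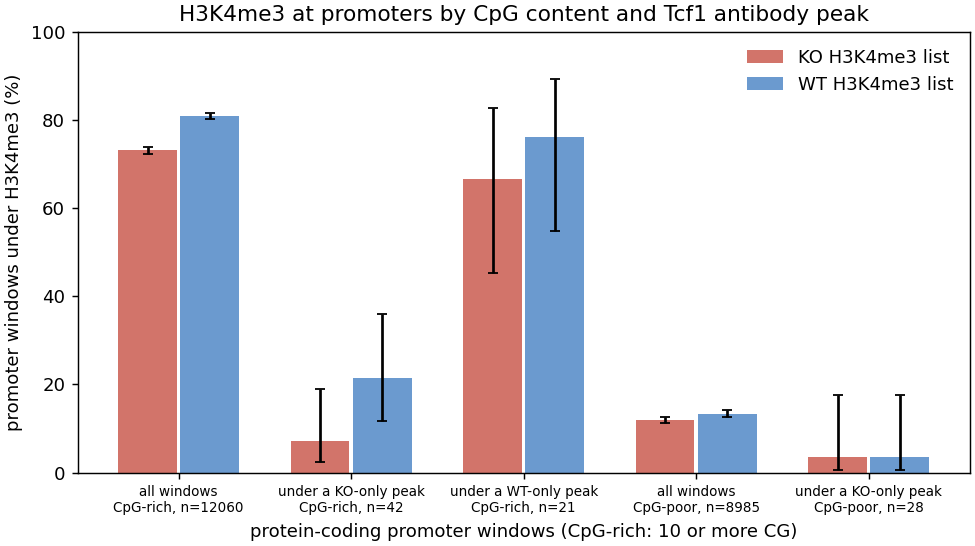
Share of protein-coding promoter windows under an H3K4me3 peak (y axis, %), by CG content and by the Tcf1 antibody peak over the window, in the KO (red) and WT (blue) H3K4me3 lists. Bars start at 0 and whiskers are 95% Wilson intervals. CpG-rich windows under a KO-only peak are marked in 7.14% (KO) and 21.4% (WT), against 73.2% and 81.1% of all CpG-rich windows.

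Going down by score from the promoters printed above to a score of 62.03, another 10 protein-coding promoters under a KO-only peak hold at least 10 CG pairs in the 250 bases before the start site. They are named after their values were seen, and their scores of at most 72.26 make them weak calls. Ptprt, a receptor phosphatase, had 28 tags over 39 CG pairs, and Syt14, a synaptotagmin, had 23 tags over 25. Homer2, a postsynaptic scaffold, had 18 tags over 40 CG pairs, Igfbp3, an IGF-binding protein, had 22 over 32, and Pparg, the adipocyte regulator, had 19 over 38. Prune2, 1700067K01Rik, Qrfprl and Ttc9b had 17 to 32 tags over 15 to 28 CG pairs. The KO-only peaks of these 9 genes meet no H3K4me3 peak. Snx7, a sorting nexin, is the 1 that does, with 18 tags in the KO-only peak and H3K4me3 peaks of 89 (KO) and 107 tags (WT).

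The comparison was repeated from the side of the H3K4me3 peaks, which count as promoter peaks where the summit lies within 1 kb of a start site. Of the 8968 KO H3K4me3 peaks at promoters that were called in both genotypes, KO-only peaks touched 4 (0.0446%, interval 0.0174 to 0.115%). Their summits lay there at 0.191 per Mb (0.0520 to 0.489), against 1.94 per Mb over the whole span. WT-only peaks, fewer by number, touched 22 of the same H3K4me3 peaks, at 1.00 summits per Mb against 0.286 over the span. KO-only peaks were thus scarcer there than elsewhere and WT-only peaks denser, and neither Poisson interval (WT-only 0.620 to 1.53) holds the density over the span.

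Away from promoters the picture turned. Of the 365 KO H3K4me3 peaks away from promoters that were called in KO alone, KO-only Tcf1 peaks touched 66 (18.1%, interval 14.5 to 22.4%), at 178 summits per Mb (138 to 227). WT-only peaks touched 1 of the 365. In the WT H3K4me3 list, of 1868 peaks away from promoters called in WT alone, KO-only peaks touched 161 (8.62%, interval 7.43 to 9.98%), at 62.8 summits per Mb (53.3 to 73.5), and WT-only peaks touched 10. The KO-only set is larger than the WT-only set, so it was also reduced to its 734 highest scores, and these touched 8.22% (KO list) and 3.48% (WT list) of the same H3K4me3 peaks. For H3K4me3 peaks away from promoters called in both genotypes the KO-only share was 15 of 1705 (0.880%) in the KO list and 15 of 1714 (0.875%) in the WT list. Contact with distal peaks of 1 genotype was not particular to KO-only peaks. The 114 KO peaks shared with WT touched 2 of the 365 and 48 of the 1868, the latter at 19.5 summits per Mb. Of these 114, 48 (42.1%) met a WT H3K4me3 peak and no KO one, against 176 KO-only peaks (3.54%). For a KO H3K4me3 peak and no WT one the shares were 1.75% and 1.39%.

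**Figure D4:**
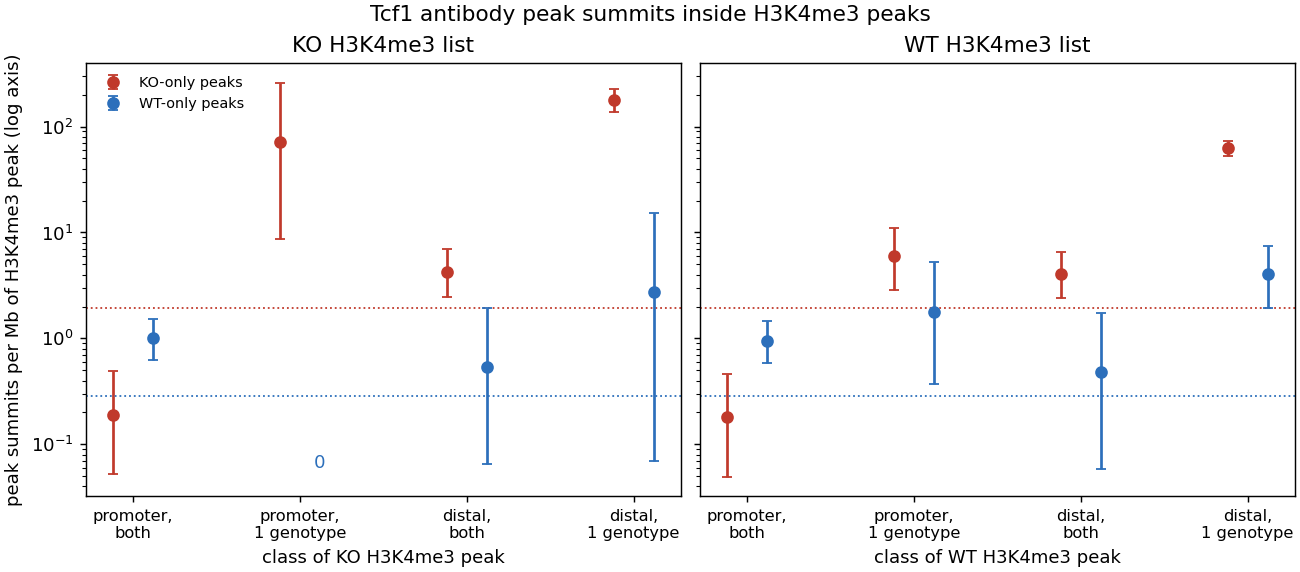
Tcf1 antibody peak summits per Mb of H3K4me3 peak (y axis, log scale) in 4 classes of H3K4me3 peak (at a promoter or distal, called in both genotypes or in 1), for KO-only (red) and WT-only (blue) peaks, in the KO list (left) and WT list (right). Points have exact 95% Poisson intervals, a 0 marks a class without a summit and dotted lines are the densities over the whole span, 1.94 (KO-only) and 0.286 (WT-only) per Mb. KO-only peaks run from 0.191 per Mb at shared promoters to 178 per Mb in distal peaks of the KO list alone.

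The H3K4me3 peaks called in 1 genotype alone are weaker, so strength was held in ranges of tags. Among KO H3K4me3 peaks of 50 to 99 tags away from promoters, KO-only peaks touched 19 of 71 called in KO alone (26.8%, interval 17.9 to 38.1%) and 7 of 199 called in both genotypes (3.52%, interval 1.71 to 7.08%). Among those under 50 tags the shares were 44 of 280 (15.7%) and 3 of 29 (10.3%), with overlapping intervals. In the WT list the same ranges gave 21 of 667 (3.15%) against 4 of 185 (2.16%), and 138 of 860 (16.05%) against 7 of 98 (7.14%), with overlapping intervals in the first range (2.07 to 4.77% and 0.844 to 5.43%) and a small overlap in the second (13.8 to 18.7% and 3.50 to 14.0%). From 100 tags the KO list gave 3 of 14 (21.4%, interval 7.57 to 47.6%) against 5 of 1477 (0.339%, interval 0.145 to 0.790%). These intervals do not overlap, though the first rests on 14 peaks. In the WT list it was 2 of 341 (0.587%) against 4 of 1431 (0.280%), with overlapping intervals. Among KO promoter peaks of 50 to 99 tags called in both genotypes, 1 of 134 (0.746%) was touched. Tag ranges of unequal depth between lists are not the same level.

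Seen from the Tcf1 side, 90 KO-only peaks (1.81%, interval 1.47 to 2.22%) met a KO H3K4me3 peak and 197 (3.96%, interval 3.45 to 4.54%) a WT one, and 21 met both. The H3K4me3 peaks cover 0.978% (KO) and 1.18% (WT) of the span. The measure like this coverage is the share of summits inside an H3K4me3 peak, which was 1.75% (KO) and 3.74% (WT). The H3K4me3 peaks under KO-only peaks held a median of 47 tags in KO, against 572 for those not under one, and 34.5 against 373 in WT. In KO, 76 of the 87 had under 100 tags (87.4%), and in WT 180 of 190 (94.7%). With only H3K4me3 peaks of a score of at least 100 the shares fell to 0.301% (KO) and 0.864% (WT). With both H3K4me3 lists brought to equal length by score, the WT share was 0.201% and the KO share 1.81%, so the order of the 2 genotypes turned. Whether the KO lists shared a control track is not given in the sources used here, and its part in the overlap was not tested.

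Among the overlapping peaks, the median offset was 92.5 bp between the KO-only summit and the KO H3K4me3 summit (63 of 90 within 200 bp). It was 170 bp for the WT H3K4me3 peaks (110 of 197). Overlap itself limits these offsets, since the H3K4me3 peaks concerned had a median length of 1019 bp (KO) and 1012 bp (WT). The offset under random placement was not computed. In KO, 82 of the 90 peaks were covered to at least 90% by the H3K4me3 peak.

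The share on H3K4me3 rose with the score of the KO-only peak. For scores of 50 to 55 it was 0.962% (18 of 1871) in KO and 2.46% in WT, and for scores of 100 to 150 it was 11.0% (18 of 163, interval 7.10 to 16.8%) and 14.7%. The lowest and this range have intervals that do not overlap. Peaks of higher score were also longer (median 379 bp for scores of 50 to 55, 747 bp for 100 to 150), so length moved with score, and its part in the share was not tested. The shared KO peaks met a KO H3K4me3 peak in 15 of 114 (13.2%) and a WT one in 61 of 114 (53.5%).

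**Figure D5:**
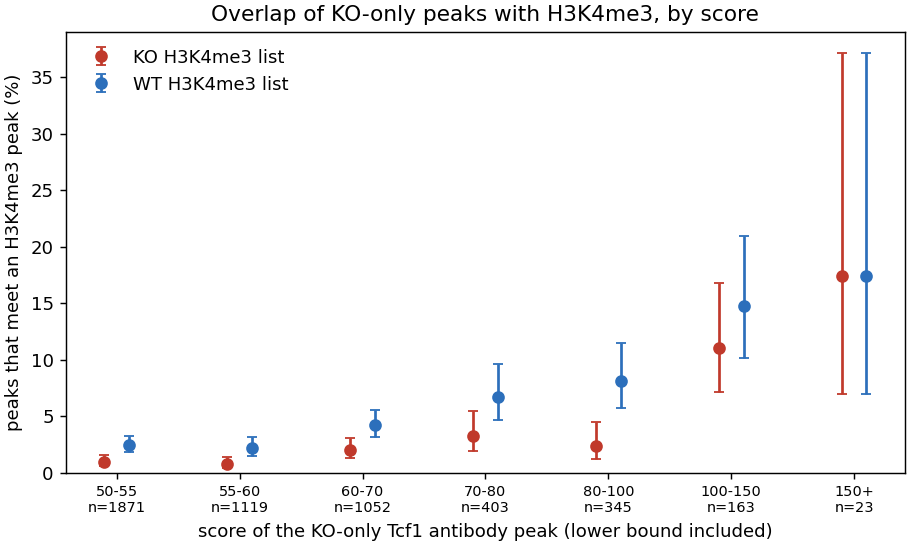
Share of KO-only peaks that meet an H3K4me3 peak (y axis, %) by the score of the KO-only peak (x axis), for the KO (red) and WT (blue) H3K4me3 lists, with 95% Wilson intervals and the number of peaks under each range. Both shares are below 3% for scores of 50 to 60 and above 10% from a score of 100.

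Among the 10 highest-scoring KO-only peaks on a KO H3K4me3 peak, the first was the one 1025 kb from the start of Lrfn5 (98 tags, H3K4me3 72 tags in KO and none called in WT). The peak near Csf2ra was next, and then 1 near Btbd35f28 on X (30 tags, H3K4me3 45 tags in KO). Those near Cdk5rap2, Mrgprb13, Prdx6b, Rgmb, 9530057J20Rik and Tspyl5 followed, with KO H3K4me3 peaks of 39 to 287 tags. These 9 lie between genes, and 7 of them have no WT H3K4me3 peak. The peaks near Csf2ra and near Mrgprb13 do.

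The 10 highest-scoring peaks on a WT H3K4me3 peak and no KO one had WT H3K4me3 peaks of 25 to 52 tags. They were led by the peaks near Slc4a3 (64 tags), Mup10 (67 tags) and Crim1 (41 tags, 967.6 kb from its start). Of these 10, 1 (Fut8) lies at a promoter. The peaks in Tmem132d, Gxylt2, Smarca1 and Luzp2 lie in gene bodies.

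Genes with an H3K4me3 peak at their start in both genotypes held fewer KO-only peaks for their length. Within gene bodies there were 1.42 per Mb (interval 1.32 to 1.54) for the 10086 genes marked in both genotypes, 2.23 (2.09 to 2.38) for the 8407 marked in neither and 1.93 (1.67 to 2.23) for the 1255 marked in WT alone. The 36 genes marked in KO alone held 6 peaks. The first and second intervals do not overlap.

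Across chromosomes the density varied by under 2-fold. It ran from 1.53 per Mb on chromosome 11 to 2.30 on chromosome 6, and X had 1.66 against 1.96 on the autosomes. Over the 20 chromosomes the density went with genes per Mb at a Pearson r of -0.31 and a Spearman rho of -0.22. This is a description over 20 points that share 1 library.

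The KO-only peaks were largely single. Runs of peaks up to 10 kb apart made 165 clusters with 344 peaks (6.91%), of which 154 were pairs and 11 held 3 or more. Of 2579 windows of 1 Mb, 440 held no KO-only peak, 56 held 6 or more and 1 held 21. The densest, chr8:20000001-21000000, held 21 peaks of 19 to 160 tags over 7 protein-coding genes and 14 pseudogenes, with Defb33, a beta-defensin, among the genes. No WT Tcf1 peak was called there.

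The window chr7:59000001-60000000 held 12 peaks of 13 to 157 tags. Its coding genes are Ube3a, Snrpn and Snurf, which are imprinted genes, and 206 of its 215 annotated features are small nucleolar RNA genes. The largest cluster, 6 peaks with 349 tags over 37.1 kb (chr7:59733237-59770354), lies in it. The window chr11:99000001-100000000 also held 12 peaks, of 13 to 26 tags, and 23 of its 55 coding genes are keratin-associated protein (Krtap) genes, hair proteins. Krtap4-7, Krtap1-4 and Krtap4-1 had a promoter peak there (22, 18 and 18 tags). Each of the 3 windows holds arrays of related genes or pseudogenes, and the part of read placement in these counts was not tested.

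Within genes, the most KO-only peaks were in Gpc5, a glypican (6 peaks in 1433 kb), and Macrod2 (6 in 1998 kb). Phkb, Suclg2, Fras1, Sox5 and Lsamp held 5 each. For its length Phkb, a subunit of phosphorylase kinase, was the densest of these 7, at 22.4 per Mb.

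Over all genes 4406 of 21523 protein-coding genes had a KO-only peak within 50 kb of the gene body (20.5%), which is the background for the lists below. Of 20 Tcf/Lef and Wnt genes, 3 had one. They were Ccnd1, a cyclin and Wnt target (15 tags, 47.2 kb away), Nkd1, a feedback inhibitor (16 tags, 32.6 kb), and Ctnnb1, which encodes beta-catenin (11 tags, 48.3 kb). None of the 20 had a KO-only peak within 10 kb, where the background is 9.12%. Tcf7 itself had none within 1 Mb, and the nearest lay 1330 kb away over the start of Zfp2 (34 tags). Of the same 20 genes, 7 had a WT-only peak within 50 kb, where the background is 3.94%.

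The shares of NK receptor and NK transcription factor genes near a KO-only peak have intervals (1.79 to 20.7% and 2.14 to 24.1%) that hold the background of 20.5%. Of 31 NK receptor genes, 2 had a KO-only peak within 50 kb, Ncr1 (11 tags, 7.24 kb from the activating receptor gene) and Klra5, of the Ly49 receptors (19 tags, 41.7 kb). Of 26 NK transcription factor genes, Ikzf2 (21 tags, 14.2 kb) and Ets1 (14 tags, 24.8 kb) had one. All 12 NK marker genes had an H3K4me3 peak at the start in both genotypes, none of the 3 B cell and 4 myeloid markers with a known start did, and of 6 T cell markers Cd3d and Cd3e did in WT. Over all 19784 genes with a known start, 51.0% had one in both genotypes, 51.2% in KO and 57.3% in WT.

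Of 10 granzyme genes, 5 had a KO-only peak within 50 kb, but these were 2 peaks. The first, chr14:56195944-56196378 (19 tags, score 73.28), lies among Gzmg, Gzmn, Gzmf and Gzmc, 8.89 kb from Gzmf and 21.3 to 36.4 kb from the others. The second, chr13:113203193-113203564 (15 tags), lies 22.2 kb from Gzmk. Both have an FDR of 100% and neither meets an H3K4me3 peak. Neighbouring genes share peaks, so the share over genes counts 1 peak several times.

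The other lists are given against the same background of 20.5%. Of 18 other cytotoxic effector genes 4 had a KO-only peak within 50 kb, Tnfsf10, Rab27a, Stx11 and Unc13d. Of 15 housekeeping genes 4 did, of 13 T cell markers 1 (Cd4), of 9 myeloid markers 1 (Spi1), and of 8 B cell markers none did. Of 16 genes silent in lymphocytes none did either, with an interval of 0 to 19.4% that lies below this background over genes of all lengths. Their median length was 10.2 kb. Among all genes under 10 kb the share was 16.9%, and from 10 to 30 kb it was 14.9%. The interval holds both of these shares.

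Of 25 very long genes, listed as neuronal adhesion genes although not all encode adhesion proteins, 22 had a KO-only peak within 50 kb. Among all genes of at least 300 kb, however, the share was 68.0%. Per length these 25 held 1.35 peaks per Mb of gene body (interval 1.01 to 1.77). The 1.94 over the span is not a like measure, since it also counts sequence between genes. Protein-coding gene bodies as a whole held 1788 summits over 1028 Mb. Lsamp held 5 in 2197 kb and Csmd1 3 in 1643 kb. Of the 22, Macrod2 (21 tags, score 103.03) and Il1rapl1 (38 tags, score 115.29), were the 2 with a peak of a score of at least 100.

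In several multicopy families the share of genes within 50 kb of a KO-only peak was above the background of 20.5%, and neighbouring genes shared peaks. Of 1109 Olfr (olfactory receptor) genes 282 (25.4%) had a KO-only peak within 50 kb, from 87 distinct peaks, and of 228 Vmn1r (vomeronasal receptor) genes 65 (28.5%) did, from 35. Of 69 Pcdh (protocadherin) genes 41 did, from 10 peaks, of 39 Hox genes 12 did, from 3, and of 22 Mup (major urinary protein) genes 10 did, from 9. The 4 Speer genes of 10 had 12 distinct peaks around them. Of 11 Klra genes 3 did. The intervals for Hox (18.6 to 46.4%), Speer (16.8 to 68.7%) and Klra genes (9.75 to 56.6%) hold the background of 20.5%. Pcdh genes had a median length of 90.3 kb. Among all genes of 30 to 100 kb the share was 21.9%, and from 100 to 300 kb it was 36.4%. With a score of at least 100 the background is 0.832%, and 12 Olfr, 5 Vmn1r, 4 Zfp (zinc finger) and 2 Mup genes had such a peak. Zfp genes, at 88 of 400, and Vmn2r genes, at 24 of 122, were near the background of 20.5%. Within 10 kb the background is 9.12%, and Olfr (59 of 1109), Vmn1r (13 of 228), Hox (2 of 39) and Mup genes (0 of 22) lay below it. Pcdh (20 of 69), Speer (2 of 10) and Klra genes (2 of 11) lay above it.

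Of 1005 miRNA hairpins on these chromosomes, 1 lies under a KO-only peak, that of Mir30e (chr4:120772606-120772697). The KO-only peaks cover 0.0923% of the span, and 1 of 1005 is close to that share.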

How the data were processed

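ChIP-seq peak lists of 4 antibody libraries were used. Reads were aligned with Bowtie2 2.1.0 and peaks called with MACS 1.4, per the submitters' processing notes, which also list several builds without a role. Positions were read as GRCm38. Control track and settings are not given in the sources used here.

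The deposited lists give, per peak, the tag count (not scaled to depth), a score (10 times the negative log10 of p), a fold ratio over background and an FDR in percent, per the file headers. Other columns hold positions that the authors gave, counted from 0 and converted to 1. Rows, 1 per peak and gene feature, were reduced to distinct peaks.

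Peaks that share 1 bp or more were taken as overlapping. Protein-coding genes (21523) and promoter windows came from RefSeq tables of GRCm38.p6. Genes placed before 3 Mb (108) were left out, since no listed peak lies there. Start sites were known for 19784 genes, 2510 of them from strand in the lists. A promoter is a summit within 1 kb of a start site. Shares have 95% Wilson intervals and densities exact Poisson intervals, both for counting error only. Since each group is 1 library, no test was run. The overlap code was tested on simulated data, and 200 of 200 overlaps were found exactly.

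Members, lists and alternatives were chosen with earlier results of these data known. Named peaks were the 10 highest by score, tags and length, promoter peaks with a score of at least 100, the 10 highest on H3K4me3 in KO or in WT alone, those near list genes, those nearest to the rule's line, and the 3 densest windows. Of the peaks so named, 1 is not reported here. Genes named from the promoter sequences, and the gene bodies with the most peaks, were chosen after their values were seen. Alternatives are in the closing section. The software was Python 3.11.15 with scipy 1.17.1, pandas 2.3.3, numpy 2.4.6, and matplotlib 3.10.9.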

Additional observations from a re-analysis of the deposited data

Results flagged for a closer look

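Peaks on the Y chromosome fall outside the set described above. The KO Tcf1 list had 18 of them with 238 tags, and the WT Tcf1 list had 2 with 135 tags. The H3K4me3 lists had 6 (KO) and 9 (WT). The sex of the mice is not given in the sources used here.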

How the results depend on the processing

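No paired analysis was possible because each group held 1 library and no test was run, and no library could be left out for the same reason. The number of KO-only peaks was 4978, 4969 and 5035 when overlap counted from 50% of the shorter peak, when peaks had to lie at least 1 kb from a WT peak, and when WT peaks needed a score of at least 100. It was 765 with the KO list shortened by score to the length of the WT list, and 20 with an FDR of at most 50%. With a score of at least 100, the share on KO H3K4me3 was 11.8%, that on WT H3K4me3 15.1% and that in gene bodies 26.3%. With such a score the number of genes near a peak was 0 for Tcf/Lef and Wnt genes, granzymes, other cytotoxic effectors, NK receptors, NK transcription factors, T cell markers, myeloid markers, housekeeping genes and the Klra, Hox and Speer families. It was 2 for the list of very long genes, 12 for Olfr, 5 for Vmn1r, 1 for Vmn2r, 4 for Zfp, 2 for Mup and 1 for Pcdh genes. With H3K4me3 peaks of a score of at least 100 the shares were 0.301% (KO) and 0.864% (WT). With H3K4me3 lists of equal length the WT share was 0.201%. With promoters of 2.5 kb the promoter share was 3.64%, and its interval (3.15 to 4.19%) holds the 3.91% of the span in such windows. At 1 kb the share was above that of the span. Within 10 kb (background 9.12%) the numbers were 0 for Tcf/Lef and Wnt genes, cytotoxic effectors, NK transcription factors, myeloid markers, housekeeping and Mup genes, 1 for granzymes, 1 for NK receptors, 59 for Olfr, 13 for Vmn1r, 9 for Vmn2r, 40 for Zfp, 2 for Hox, 2 for Speer and 20 for Pcdh genes. Within 100 kb (background 32.3% of genes) they were 5 for Tcf/Lef and Wnt genes, 8 for granzymes, 5 for NK transcription factors, 2 for genes silent in lymphocytes, 456 for Olfr, 107 for Vmn1r, 42 for Vmn2r and 133 for Zfp genes. Clusters numbered 63 with gaps up to 2 kb and 494 with gaps up to 50 kb. A further alternative, chosen after seeing the data, kept the 734 KO-only peaks of highest score. They met 8.22% (KO) and 3.48% (WT) of the H3K4me3 peaks away from promoters and called in 1 genotype alone. Of all alternative values, 26 were within 1.5 times the value reported (counts) or inside its 95% interval (shares), and 54 were not. The wider or narrower settings count more or fewer peaks by construction, and other causes were not tested. Depth is unknown, and most calls rest on at most 20 tags.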
